A study of Mus musculus with 9 samples.

Results

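Mitochondrial ribosomal protein genes, the nuclear genes named Mrpl or Mrps followed by a number, were followed in pancreatic cancer cells of the mouse that had been stably transfected with beta-catenin or with ICAT. A gene belonged to the set when a single-gene probe set of the array carried such a symbol, and of several such probe sets the brightest, by its mean of 9 arrays, stood for the gene. The rule gave 76 of the 18193 genes on the array, measured by 156 probe sets, and all 76 passed the filter on low values (a log2 value of 5 or more on 3 or more arrays), which left 15235 genes in all. By the names and known structures of the mitochondrial ribosome, 49 of the proteins were counted to the large subunit and 26 to the small subunit. Mrps18a and Mrps30 were counted to the large subunit, where their proteins sit despite the names. Mrps36, whose protein is now known as a component of the 2-oxoglutarate dehydrogenase complex, was kept by its name and counted to neither subunit. Mrpl30 and Mrpl53 were left out because their probe sets carried the names of several genes.

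The 9 arrays fell into 3 groups of 3: cells transfected with beta-catenin (Ctnnb1), the transcriptional co-activator at the end of the Wnt pathway, cells transfected with ICAT (Ctnnbip1), an inhibitor that keeps beta-catenin from TCF factors, and control cells. All were the 170#3 line, of mixed C57BL6, FVB and 129Sv background, grown as a monolayer in DMEM with serum. The labels call the 3 samples of a group biological replicates but do not say whether they came from separate transfections or clones, so a p-value here measures only the spread between these samples. What the control cells were transfected with, and which promoter drove the constructs, was not given in the sources used here. The values are log2 expression. Array medians lay between 6.214 and 6.289, and arrays of a group correlated at 0.99696 or more in beta-catenin cells, 0.99083 or more in ICAT cells and 0.99799 or more in control cells. Over the set, the median SD between replicates was 0.0524 in beta-catenin cells, 0.154 in ICAT cells and 0.0295 in control cells, and ICAT values were thus the least precise.

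The transfected genes themselves did not tell the lines apart. Ctnnb1 measured 12.87, 12.89 and 12.89 in beta-catenin cells, 13.00, 12.86 and 12.78 in ICAT cells, and 12.69, 12.67 and 12.70 in control cells, and differed from control by 0.20 (adjusted p = 0.0353, limma) and 0.19 (adjusted p = 0.0364). Ctnnbip1 differed from control by 0.14 in both lines, with adjusted p of 0.208 and 0.189, and neither was called. The labels do not say whether the constructs carried the sequence these probe sets read, so the groups are named here as labelled. Cell type markers were read as a further check of the pancreatic cancer label. The epithelial gene Cdh1 lay between 3.39 and 3.56 on every array, under the filter, and Krt7 did not pass it either. The other epithelial and ductal markers passed it: Sox9 lay between 8.94 and 9.62, Krt18 between 6.57 and 8.92, Krt8 between 6.33 and 7.60, and Epcam between 7.34 and 7.65, with Muc1 and Krt19 as the remaining members. Of the collagen genes, Col3a1 and Col1a2 had control means of 12.70 and 12.17, and Col1a1 lay between 6.001 and 8.428 over all arrays. In ICAT cells 7 of the 8 tested fibroblast markers and 4 of the 6 tested epithelial and ductal markers were higher than in control, while in beta-catenin cells 3 fibroblast markers were higher and 2 lower and no epithelial marker was called. Of all tested genes 18.7% were called higher in ICAT cells, and 19.6% higher and 15.4% lower in beta-catenin cells. The summed level of the 9 fibroblast markers, as log2, lay between 13.21 and 13.34 in beta-catenin cells, 14.61 and 14.72 in ICAT cells, and 13.66 and 13.68 in control cells. Such sums are of unlogged levels, so the brightest genes, here Col3a1 and Col1a2, weigh most. The median difference of the 8 tested fibroblast markers in beta-catenin cells was 0.32, with 5 above 0 and 3 below it. The 8 epithelial and ductal markers summed to between 10.07 and 10.12 in beta-catenin cells, 10.51 and 10.82 in ICAT cells, and 10.07 and 10.16 in control cells. Summed immune and endothelial markers lay between 8.84 and 8.96 in beta-catenin cells, 8.92 and 9.07 in ICAT cells, and 8.93 and 9.03 in control cells, with Ptprc, Itgam, Cdh5 and Tek under the filter. The markers that passed it were Kdr (7.343 to 7.668), Cd3e (6.914 to 7.199), Cd68 (5.351 to 6.315) and Pecam1 (5.043 to 5.359). The part of these marker changes in the results below was not tested, and in such bulk samples fewer cells of a type and less RNA per cell cannot be told apart.

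Mitochondrial ribosomes translate the few messages encoded in mitochondrial DNA, all of them subunits of the oxidative phosphorylation complexes. Their RNA is made inside the organelle, but every ribosomal protein is encoded in the nucleus, made in the cytosol and imported, so the nuclear genes have to supply both subunits. Many of these proteins descend from bacterial ribosomal proteins, and others were added in the mitochondrial lineage and have no bacterial counterpart. Respiration depends on their output.

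All values of the set lay well above the filter, between 8.06 and 12.65 on single arrays. The brightest probe sets were those of Mrpl13 (mean of 12.21), Mrps6 (11.89), Mrpl51 (11.31) and Mrpl39 (11.16), and the dimmest those of Mrps11 (8.79), Mrpl55 (8.63), Mrps27 (8.56) and Mrpl1 (8.28). Brightness depends on the probes as well as on the transcript, so these values say where on the array's scale a gene was read and do not rank the genes by transcript amount.

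**Figure D1:**
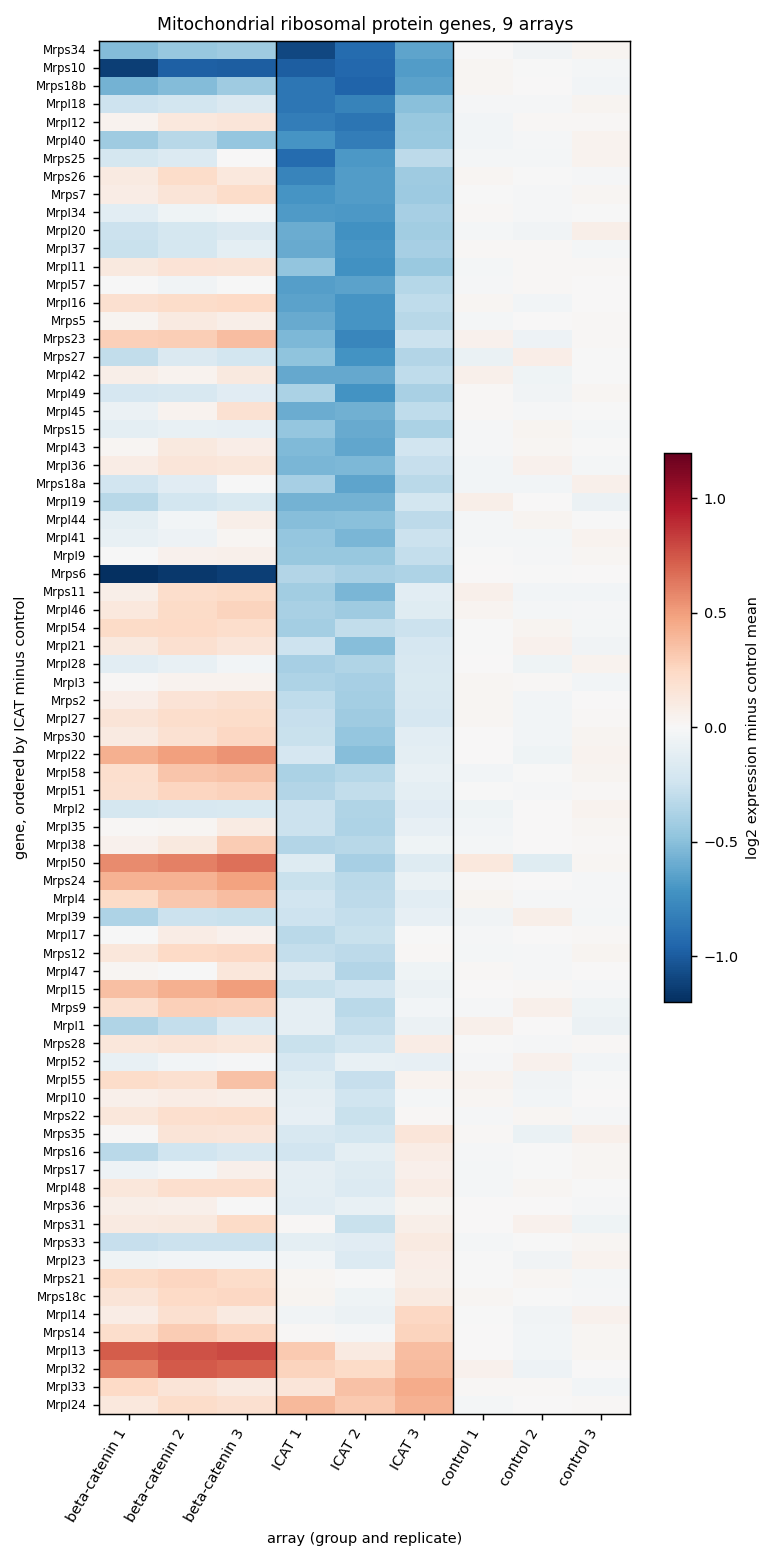
Log2 expression minus the control mean for the 76 mitochondrial ribosomal protein genes (down) on the 9 arrays (across; beta-catenin, ICAT, control), ordered by the ICAT difference; blue is below and red above the control mean. The ICAT columns are mostly blue, with the palest in replicate 3, whereas the beta-catenin columns hold both colours, led by Mrps6 and Mrps10 below and Mrpl13 and Mrpl32 above control.

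The design sets cells with added beta-catenin, and cells with added ICAT, against control cells. In ICAT cells most mitochondrial ribosomal protein genes were lower than in control cells. Of the 76 genes 47 fell, 61.8% of the set, where 18.5% of all tested genes were called lower. Only 4 rose, 5.26% of the set, where 18.7% of all tested genes were called higher, and 25 were not called. The median difference over the set was -0.29 (quartiles -0.50 and -0.13), and 68 of 76 differences, 89.5%, lay below 0. Over all tested genes the median was -0.01 and 52.3% lay below 0. The changes were modest in size: 10 genes fell at least 1.5-fold, with 3.64% of all tested genes doing so, and none rose by as much, with 6.25% of all tested genes doing so. In 52 genes every ICAT array lay below every control array (23.3% of all tested genes did so), and in 4 every ICAT array lay above them (22.9%).

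Mrps34, a small-subunit protein without a bacterial counterpart, showed the largest decrease in ICAT cells. It measured 9.58, 9.75 and 10.04 in ICAT cells, against 10.68, 10.63 and 10.71 in control cells. All 3 ICAT arrays lay below the control arrays, with replicate 3 the nearest to them. The difference was -0.88 (SE 0.0994), a 1.84-fold decrease with an adjusted p of 4.66e-05 in limma. Mrps10, the counterpart of bacterial S10, measured 9.95, 10.00 and 10.27 in ICAT cells, against 10.96, 10.93 and 10.91 in control cells, and fell 1.82-fold (log2 difference -0.87, adjusted p = 1.96e-05). Mrps18b, one of 3 mammalian counterparts of bacterial S18, measured 9.50, 9.41 and 9.73 in ICAT cells, against 10.40, 10.38 and 10.34 in control cells, and fell 1.77-fold (-0.82, adjusted p = 2.16e-05). These 3 genes lie on chromosome 17 and were also lower in beta-catenin cells.

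Large-subunit genes fell too. Mrpl18, whose human protein helps carry 5S ribosomal RNA into mitochondria, measured 10.13, 10.19 and 10.50 in ICAT cells, against 10.98, 10.98 and 11.03 in control cells (1.65-fold lower, adjusted p = 8.18e-05). Mrpl12, the counterpart of the bacterial stalk protein that contacts translation factors, measured 10.38, 10.34 and 10.75 in ICAT cells, against 11.18, 11.22 and 11.23 in control cells (1.65-fold lower, adjusted p = 0.00017). In both genes the 3 ICAT arrays were clear of the control arrays, and replicate 3 again stood nearest to them. Mrpl40, a mitochondria-specific protein of the large subunit, fell 1.58-fold (adjusted p = 0.000195). Of small-subunit genes without a bacterial counterpart, Mrps25 fell 1.56-fold (adjusted p = 0.00188) and Mrps26 1.55-fold (adjusted p = 0.000179). Mrps26 measured 9.82, 9.95 and 10.19 in ICAT cells, against 10.64, 10.61 and 10.60 in control cells. The dim members Mrps27 and Mrps11 were also lower, with differences of -0.52 (adjusted p = 0.000913) and -0.36 (adjusted p = 0.012).

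By contrast, Mrpl24, Mrpl33, Mrpl32 and Mrpl13 rose in ICAT cells, all of them large-subunit proteins with bacterial counterparts. Mrpl24, an early-binding protein of the bacterial large subunit, measured 11.22, 11.14 and 11.24 in ICAT cells, against 10.81, 10.83 and 10.84 in control cells (1.29-fold higher, adjusted p = 0.000501, limma). Mrpl33 measured 10.90, 11.10 and 11.20 in ICAT cells, against 10.77, 10.77 and 10.72 in control cells (1.24-fold higher, adjusted p = 0.00864). ICAT arrays lay above all control arrays in both genes, with a wider spread in Mrpl33. The second probe set of Mrpl33, a far dimmer one, was not called (-0.11, adjusted p = 0.495 over all probe sets), and with the mean of both the call was lost (adjusted p = 0.274). Mrpl32 rose by 0.29 (adjusted p = 0.00497) and Mrpl13 by 0.27 (adjusted p = 0.0139). The call of Mrpl13 was lost when control replicate 2 was left out (adjusted p = 0.0554).

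Single arrays changed the size of the ICAT decrease and not the sign of its median. The median of the set, relative to the control mean, was -0.34, -0.39 and -0.14 on ICAT replicates 1, 2 and 3, with 68, 72 and 56 of 76 genes below the control mean. On the control arrays the same medians were -0.0016, -0.0089 and 0.0081. Medians of all tested genes on the ICAT arrays were 0.0019, 0.016 and -0.034. Without ICAT replicate 3, 59 genes were called lower, and the fewest, 39, were called without control replicate 3. Of the 47 decreases 39 kept their call whichever array was left out, and the other 8 were Mrpl2, Mrpl4, Mrpl22, Mrpl35, Mrpl39, Mrpl58, Mrps24 and Mrps30. Their calls were lost without 1 of the control arrays or of ICAT replicates 1 and 2, and for Mrpl22 also without beta-catenin replicate 2, with adjusted p of up to 0.13.

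**Figure D2:**
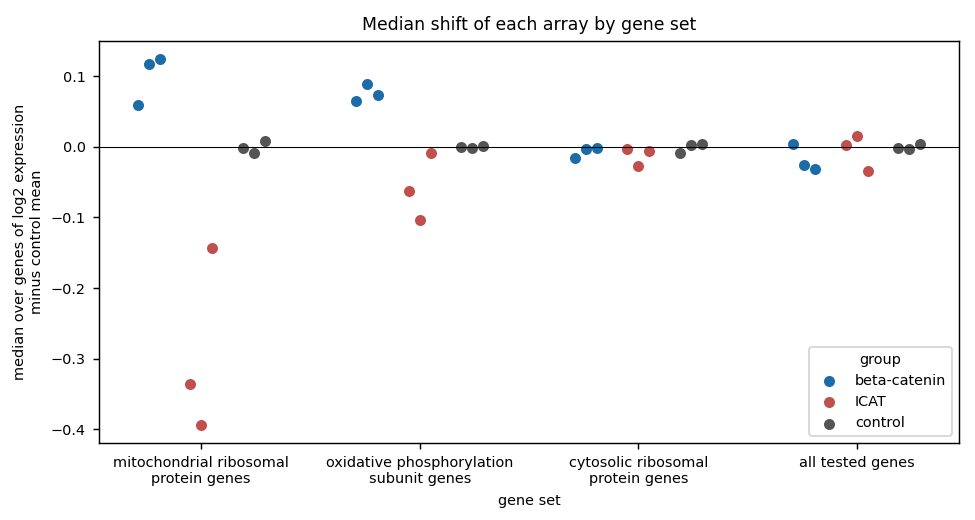
Median over genes of log2 expression minus the control mean, 1 point per array (beta-catenin, ICAT, control), for mitochondrial ribosomal protein genes, oxidative phosphorylation subunit genes, cytosolic ribosomal protein genes and all tested genes. For the mitochondrial ribosomal protein genes the ICAT arrays lie at -0.34, -0.39 and -0.14 and the beta-catenin arrays at 0.06, 0.12 and 0.12, while cytosolic ribosomal protein genes stay near 0 on every array.

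In beta-catenin cells the set did not move as a block. Of the 76 genes, 18 rose and 10 fell relative to control cells, which is 23.7% and 13.2% of the set, beside 19.6% and 15.4% of all tested genes, and 48 were not called. The median difference was 0.09 (all tested genes -0.03), and 49 genes lay above 0. With every array centred on its own median the split turned to 14 higher and 17 lower and the median to 0.03. Centring moves the difference of every gene by the same amount, so it cannot change the gap between the set and all tested genes. The share of all tested genes called with centred arrays is not given here. The side of 0 on which a small difference falls depends on this choice, and no direction is read from the set as a whole. At least 1.5-fold, 3 genes rose (6.89% of all tested genes) and 2 fell (4.33% of all tested genes). Groups that did not overlap were found for 40 genes upward (27.8% of all tested genes) and 18 downward (26.3%). The spread behind the calls was estimated from all arrays, including the ICAT arrays. Over the set, the median SD was 0.154 in ICAT cells, 0.0524 in beta-catenin cells and 0.0295 in control cells. With only the 6 arrays compared, all 28 calls were kept and 20 were gained, giving 32 higher and 16 lower. The 48 genes not called are therefore not read as unchanged. The share of all tested genes called with the 6 arrays is not given here.

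Mrps6 and Mrps10 showed the largest decreases in beta-catenin cells. Mrps6, the counterpart of bacterial S6, measured 11.21, 11.25 and 11.27 in beta-catenin cells, 12.06, 12.01 and 12.04 in ICAT cells, and 12.41, 12.40 and 12.41 in control cells. The 3 groups were fully apart, with ICAT cells between the others. The decrease was 2.24-fold in beta-catenin cells (log2 difference -1.16, SE 0.0553, adjusted p = 3.86e-08, limma) and 1.29-fold in ICAT cells (-0.37, adjusted p = 0.000314). Its other probe set gave -1.17 and -0.37. The gene's span overlaps that of Slc5a3, an inositol transporter gene, which was lower in beta-catenin cells (-1.44, adjusted p = 5.71e-08) but higher in ICAT cells (0.23, adjusted p = 0.0249); shared signal between them was not tested. Mrps10 measured 9.81, 9.96 and 9.95 in beta-catenin cells, against the control values given above, and fell 2.04-fold (-1.03, adjusted p = 2.92e-06). Beta-catenin and ICAT arrays overlapped for this gene, and the difference between them was -0.16 (95% interval -0.35 to 0.025, adjusted p = 0.159). Its dimmer probe set also fell in both lines (-0.58 and -0.44).

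Smaller decreases in beta-catenin cells were found for Mrps18b (1.42-fold, adjusted p = 0.000542), Mrps34 (1.38-fold, adjusted p = 0.00327), Mrpl40 (1.33-fold, adjusted p = 0.00464) and Mrpl39 (1.23-fold, adjusted p = 0.00634). Mrps34 measured 10.15, 10.22 and 10.25 in beta-catenin cells, below its control values and above those of ICAT cells. Mrpl39 also fell in ICAT cells, by 0.21, a call that was lost without any 1 of the control arrays or of ICAT replicates 1 and 2 (adjusted p up to 0.13). Mrps33, a mitochondria-specific protein of the small subunit, was lower in beta-catenin cells (-0.26, adjusted p = 0.0144, or 0.0552 without control replicate 3) and was not called in ICAT cells (-0.05). Mrpl1 was called lower (-0.27, adjusted p = 0.0196), but its other tested probe set was called higher by 0.44 (adjusted p = 0.000718 over all probe sets), and the mean of its probe sets gave 0.08 (adjusted p = 0.34). No direction is therefore given for Mrpl1.

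Increases in beta-catenin cells were led by Mrpl13, Mrpl32 and Mrpl50. Mrpl13, the counterpart of bacterial L13, measured 12.59, 12.63 and 12.65 in beta-catenin cells, 12.18, 11.98 and 12.24 in ICAT cells, and 11.87, 11.83 and 11.89 in control cells. The groups did not overlap, and beta-catenin cells were highest. It rose 1.69-fold in beta-catenin cells (0.76, SE 0.0733, adjusted p = 9.39e-06, limma), and 2 of its 3 other probe sets were called in the same direction in both lines, by 0.63 and 0.64 in beta-catenin cells. Mrpl32, whose cleavage by the m-AAA protease in yeast and mouse precedes its assembly into the ribosome, measured 10.91, 11.04 and 11.02 in beta-catenin cells, 10.57, 10.53 and 10.69 in ICAT cells, and 10.36, 10.24 and 10.31 in control cells (1.61-fold higher than control in beta-catenin cells, adjusted p = 1.1e-05). Mrpl50, a mitochondria-specific large-subunit protein, measured 10.28, 10.32 and 10.37 in beta-catenin cells, 9.56, 9.32 and 9.56 in ICAT cells, and 9.84, 9.57 and 9.74 in control cells. Its beta-catenin arrays were clear of all others, 1.53-fold above control (adjusted p = 0.000211), and its second probe set gave a difference of 0.62. In ICAT cells Mrpl50 differed from control by -0.24 (adjusted p = 0.0558).

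Further increases in beta-catenin cells were those of Mrpl22, a protein that lines the exit tunnel in bacteria (1.40-fold, adjusted p = 0.00168), Mrps24 (1.35-fold, adjusted p = 0.000524), Mrpl15 (1.35-fold, adjusted p = 0.000491), Mrps23 (1.25-fold, adjusted p = 0.0429) and Mrpl4 (1.24-fold, adjusted p = 0.00445). Mrps23 measured 9.81, 9.83 and 9.90 in beta-catenin cells, 8.99, 8.74 and 9.27 in ICAT cells, and 9.58, 9.47 and 9.54 in control cells, so that the groups were apart in the order beta-catenin, control, ICAT. Its increase was lost without any 1 of the beta-catenin or control arrays (adjusted p up to 0.131). Over all 28 calls in beta-catenin cells, 14 kept their call whichever array was left out. The 8 increases among these were Mrpl4, Mrpl13, Mrpl15, Mrpl22, Mrpl32, Mrpl50, Mrps21 and Mrps24, and the 6 decreases were Mrpl39, Mrpl40, Mrps6, Mrps10, Mrps18b and Mrps34. The other 14 lost their call without at least 1 of the beta-catenin or control arrays, with adjusted p of up to 0.154. No left-out array turned the sign of a call.

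**Figure D3:**
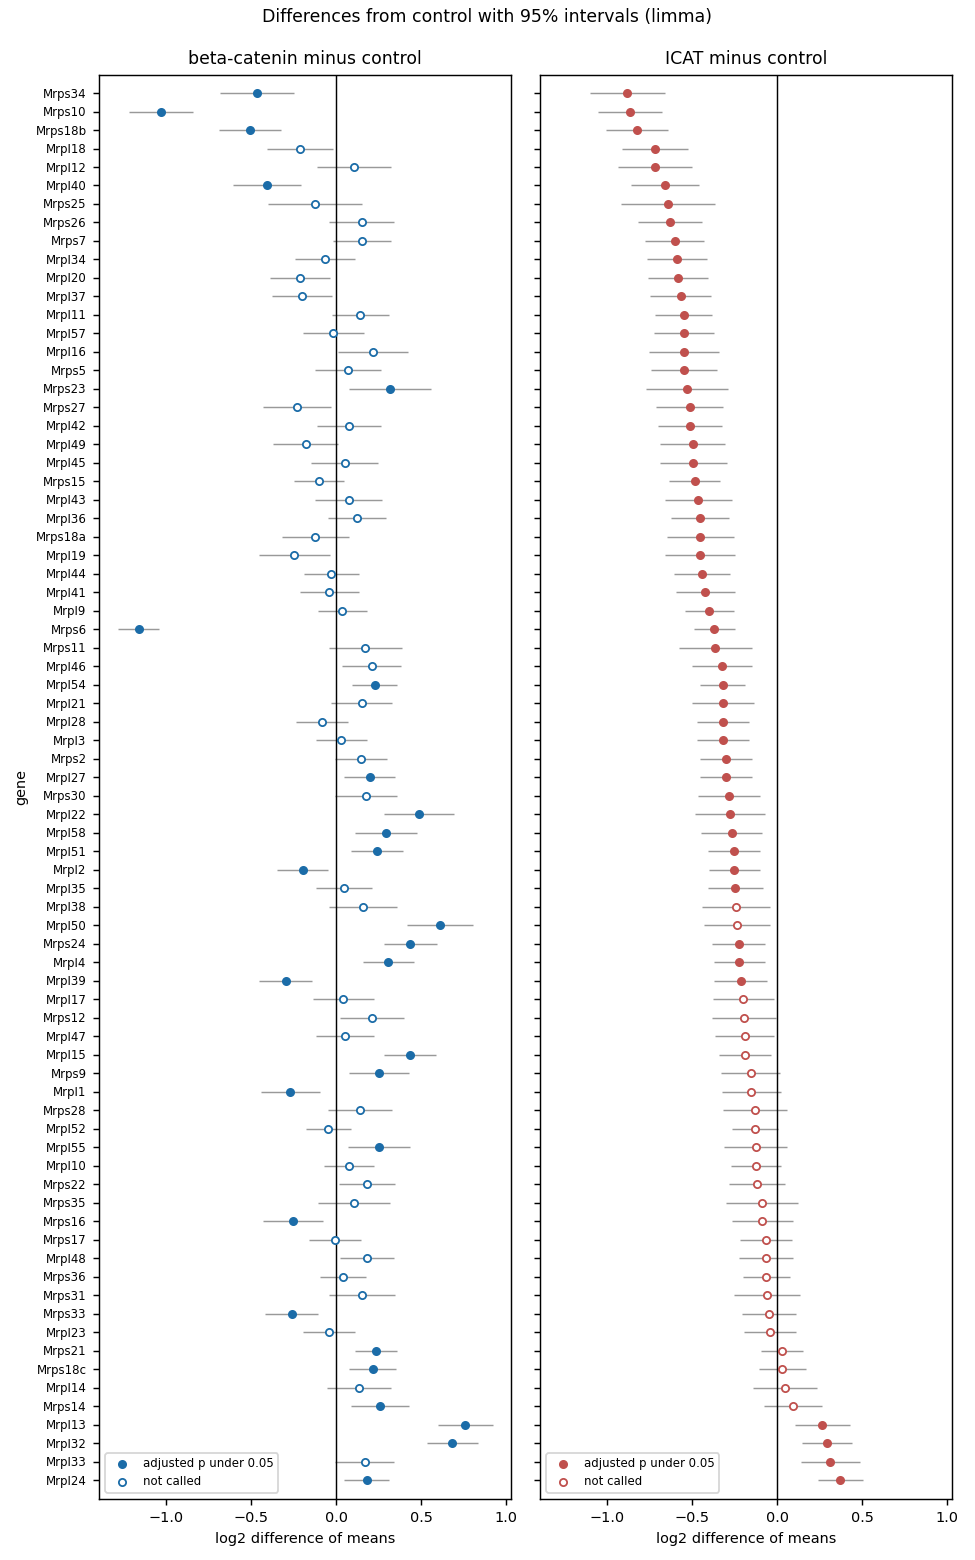
Log2 difference from control of each of the 76 genes in beta-catenin cells (left) and ICAT cells (right), with the 95% interval from limma; filled points have an adjusted p under 0.05. ICAT differences run from -0.88 (Mrps34) to 0.37 (Mrpl24) and beta-catenin differences from -1.16 (Mrps6) to 0.76 (Mrpl13).

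Set directly against ICAT cells, without the control arrays on either side of the difference, beta-catenin cells had higher levels of most of the set. Called higher were 58 of 76 genes, 76.3% of the set, beside 22.5% of all tested genes, and 3 were called lower, 3.95%, beside 17.9%. The median difference was 0.38, with -0.01 for all tested genes. At least 1.5-fold higher were 12 genes (6.37% of all tested genes), and 1 was lower by as much (5.68%). Mrps23 (0.85, adjusted p = 9.47e-05), Mrpl50 (0.85, adjusted p = 1.97e-05), Mrpl12 (0.82, adjusted p = 5.24e-05), Mrps26 (0.78, adjusted p = 3.14e-05) and Mrpl16 (0.77, adjusted p = 6.27e-05) had the largest differences upward. Mrpl12 measured 11.25, 11.34 and 11.35 in beta-catenin cells, and its difference from control there, 0.10, was not called (adjusted p = 0.459). Mrps26 measured 10.73, 10.83 and 10.74 in beta-catenin cells and likewise was not called against control (0.15, adjusted p = 0.212). Its beta-catenin arrays nonetheless all lay above its control arrays. In limma it was called higher than control with only the 6 arrays compared (adjusted p = 0.0334) and with array weights (adjusted p = 0.0051). The genes lower in beta-catenin than in ICAT cells were Mrps6 (-0.79, adjusted p = 1e-06), Mrps33 (-0.21) and Mrpl24 (-0.19, adjusted p = 0.0226). The Mrps33 call was lost without any 1 of 7 arrays (adjusted p up to 0.0816) and the Mrpl24 call without beta-catenin replicate 1 or 3 (up to 0.0819). Of the 58 higher genes 47 kept their call whichever array was left out.

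Mrps23, Mrpl22, Mrps24, Mrpl58, Mrpl54, Mrpl4, Mrpl27 and Mrpl51 were called higher in beta-catenin cells and lower in ICAT cells. Both comparisons use the same control arrays, and 1.8% of all tested genes had this pair of calls, so nothing is read from their number. Mrpl58 encodes a peptidyl-tRNA hydrolase that frees stalled mitochondrial ribosomes and is itself a part of the large subunit. It differed from control by 0.29 in beta-catenin cells (adjusted p = 0.0153) and -0.27 in ICAT cells (adjusted p = 0.0233). The corresponding differences were 0.23 and -0.32 for Mrpl54, 0.20 and -0.30 for Mrpl27, and 0.24 and -0.26 for Mrpl51. With the mean of all probe sets per gene, Mrpl54 lost both calls (0.06, adjusted p = 0.368, and -0.13, adjusted p = 0.0583), Mrpl51 its ICAT call (-0.12, adjusted p = 0.0983), Mrpl58 its beta-catenin call (0.10, adjusted p = 0.189) and Mrpl27 its beta-catenin call (0.15, adjusted p = 0.0803). None of the 8 kept both of its calls against control whichever array was left out. All 8 kept the call between beta-catenin and ICAT cells, where the differences ran from 0.50 to 0.85. Choosing genes by opposite calls already makes this difference positive, so its call is no separate support for them.

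**Figure D4:**
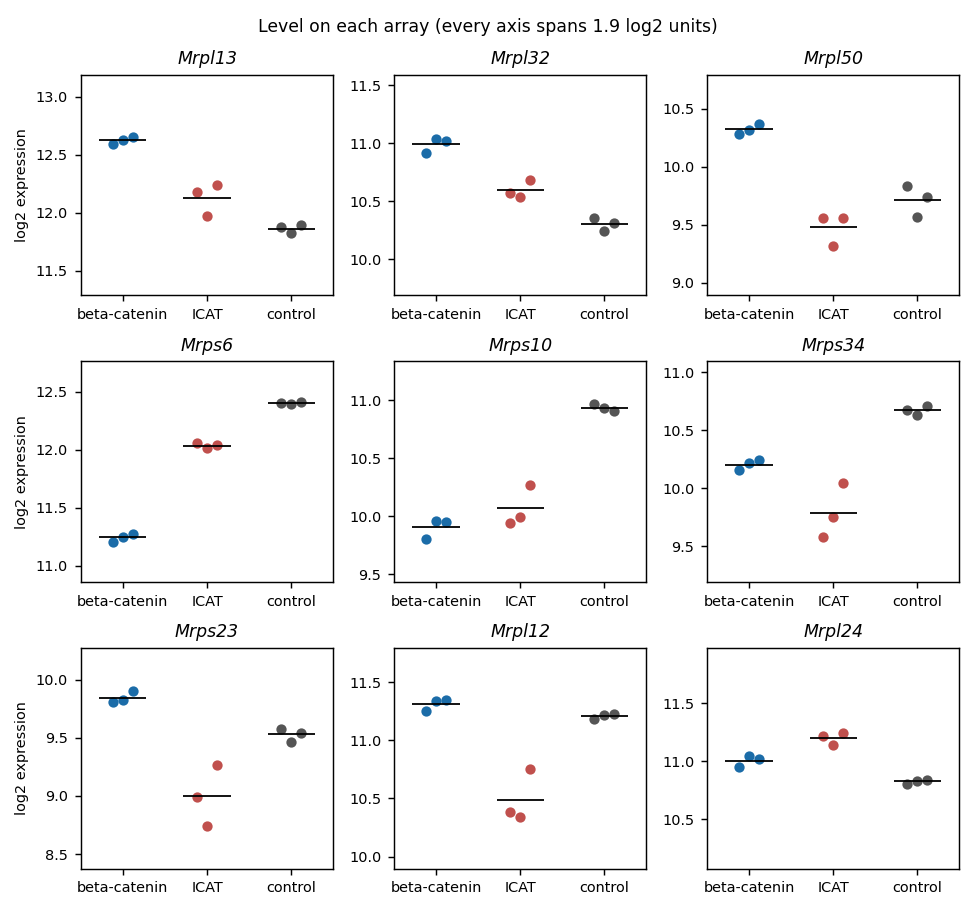
Log2 expression of 9 mitochondrial ribosomal protein genes on each array (points; beta-catenin, ICAT, control) with the group mean (line); every panel's axis has the same span. Beta-catenin arrays are highest for Mrpl13, Mrpl32, Mrpl50, Mrps23 and Mrpl12, control arrays are highest for Mrps6, Mrps10 and Mrps34, and ICAT arrays are highest for Mrpl24.

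Genes of both ribosomal subunits were among those that changed, and the counts are to be read beside the shares of all tested genes given above, 18.5% lower and 18.7% higher in ICAT cells and 15.4% lower and 19.6% higher in beta-catenin cells. In ICAT cells 33 of the 49 large-subunit genes fell and 4 rose (median difference -0.30), and 14 of the 26 small-subunit genes fell and none rose (-0.26). In beta-catenin cells 12 large-subunit genes rose and 4 fell (0.08), and 6 small-subunit genes rose and 6 fell (0.14). The large-subunit share called higher there, 24.5%, was near that of all tested genes. Sorted by origin instead, 20 of the 28 mitochondria-specific genes fell in ICAT cells and none rose, with all 28 differences below 0 and a median of -0.37. Among the 47 genes with a bacterial counterpart, 27 fell and 4 rose in ICAT cells, with 39 differences below 0 and a median of -0.25. In beta-catenin cells 5 mitochondria-specific genes rose and 4 fell, and 13 genes with a bacterial counterpart rose and 6 fell. The differences between these classes were not tested.

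The mammalian ribosome holds 3 proteins related to bacterial S18, whose genes were not tested against each other. Mrps18b, as given above, was lower in both lines. Mrps18a, whose protein sits in the large subunit, was lower in ICAT cells (-0.45, adjusted p = 0.00201, limma) and was not called in beta-catenin cells (-0.12, adjusted p = 0.337). Mrps18c was higher in beta-catenin cells (0.21, adjusted p = 0.0206) and was not called in ICAT cells (0.03, adjusted p = 0.767). The Mrps18c call was lost without beta-catenin replicate 2 or 3 or any 1 of the control arrays (adjusted p up to 0.0792). Group means of Mrps18c were 11.25 in beta-catenin cells, 11.07 in ICAT cells and 11.04 in control cells.

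Promoter sequence was read for the genes whose values carry these patterns, to show what lies before their starts. RefSeq promoter entries on GRCm38.p6 were at hand for 67 of the 76 genes, and the 250 bases before the start were searched on both strands for 5 motifs. The NRF1 motif, GCGCA followed by any base and GCGC, was found before 9 of the 67 genes, 13.4%, and before 7.78% of the other 12060 tested genes with an entry. For the ETS motif CCGGAAGT the shares were 14.9% (10 genes) and 5.59%, for the YY1 motif AAGATGGCG 2.99% (2 genes) and 1.15%, and for the E-box CACGTG 7.46% (5 genes) and 9.27%. The TCF/LEF motif CTTTGAT was found before none of the 67 genes and before 3.12% of the others. With the 50 bases after the start included, the YY1 share was 11.9% (8 genes) and 2.85%. None of these motifs contains another, and a match is a description of letters and not of binding. The ICAT median was -0.40 for genes with the NRF1 motif and -0.30 for those without, but -0.31 and -0.30 when the 50 bases after the start were included, and it was -0.31 and -0.30 with and without the ETS motif. For the 5 genes with the E-box it was -0.45, against -0.30 without it, and the beta-catenin median was -0.20 with the E-box, against 0.07 without it. None of these contrasts was tested. Capitals mark the NRF1 motif in Mrpl12 (chr11:120484387-120484636, plus strand) and Mrpl32 (chr13:14613038-14613287, minus strand), which moved in opposite directions in ICAT cells, and the ETS motif in Mrps26 (chr2:130563507-130563756, plus strand) and Mrpl51 (chr6:125191950-125192199, plus strand), which fell there. Mrps10 (chr17:47368947-47369196, plus strand), lower in both lines, held none of the 5 motifs. Each is written 5′ to 3′ on the strand of its gene.
Mrpl12: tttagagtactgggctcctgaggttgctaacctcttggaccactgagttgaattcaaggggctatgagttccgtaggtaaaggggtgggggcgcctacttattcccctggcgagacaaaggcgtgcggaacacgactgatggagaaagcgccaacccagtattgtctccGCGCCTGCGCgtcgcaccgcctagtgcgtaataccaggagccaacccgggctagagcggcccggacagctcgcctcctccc
Mrpl32: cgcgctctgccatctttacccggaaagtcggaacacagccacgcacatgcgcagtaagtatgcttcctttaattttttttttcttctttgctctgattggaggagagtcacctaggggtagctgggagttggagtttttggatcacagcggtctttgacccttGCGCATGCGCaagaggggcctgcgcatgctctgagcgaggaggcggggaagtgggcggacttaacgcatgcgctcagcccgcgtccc
Mrps26: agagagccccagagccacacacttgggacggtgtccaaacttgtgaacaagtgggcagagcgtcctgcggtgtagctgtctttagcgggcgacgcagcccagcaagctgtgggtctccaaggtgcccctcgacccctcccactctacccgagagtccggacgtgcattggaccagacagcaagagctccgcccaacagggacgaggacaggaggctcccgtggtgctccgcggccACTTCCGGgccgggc
Mrpl51: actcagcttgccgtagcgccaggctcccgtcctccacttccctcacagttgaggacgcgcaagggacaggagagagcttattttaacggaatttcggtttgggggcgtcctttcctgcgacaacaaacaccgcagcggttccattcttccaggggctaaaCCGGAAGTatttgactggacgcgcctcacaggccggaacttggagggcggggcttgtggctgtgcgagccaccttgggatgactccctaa
Mrps10: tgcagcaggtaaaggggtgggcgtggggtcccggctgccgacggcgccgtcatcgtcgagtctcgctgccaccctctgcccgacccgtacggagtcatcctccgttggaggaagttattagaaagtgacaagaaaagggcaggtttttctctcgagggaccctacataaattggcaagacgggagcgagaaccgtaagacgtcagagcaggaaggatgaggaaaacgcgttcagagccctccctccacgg

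The genes lie on many chromosomes, and their differences were set beside those of the other genes there. In beta-catenin cells all 11 members on chromosome 11 lay above control, 6 of them called higher, with a median of 0.20. Of the 1244 other tested genes of that chromosome 58.2% lay above 0 and 28.7% were called higher. On chromosome 17, 7 of 8 members lay below control and 4 were called lower, with a median of -0.21, and of the 736 other genes 77.6% lay below 0 and 32.1% were called lower (median -0.13). The 3 members on chromosome 16 were all called lower, with 25.6% of the 481 other genes there. In ICAT cells 7 of 8 members on chromosome 17 were called lower, with a median of -0.59, while 24.5% of its other genes were called lower (median -0.05). All 11 members on chromosome 11 lay below 0 in ICAT cells, 8 of them called, where 20.3% of the other genes were called lower. Whether the chromosome's other genes and the members moved for a common reason was not tested.

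**Figure D5:**
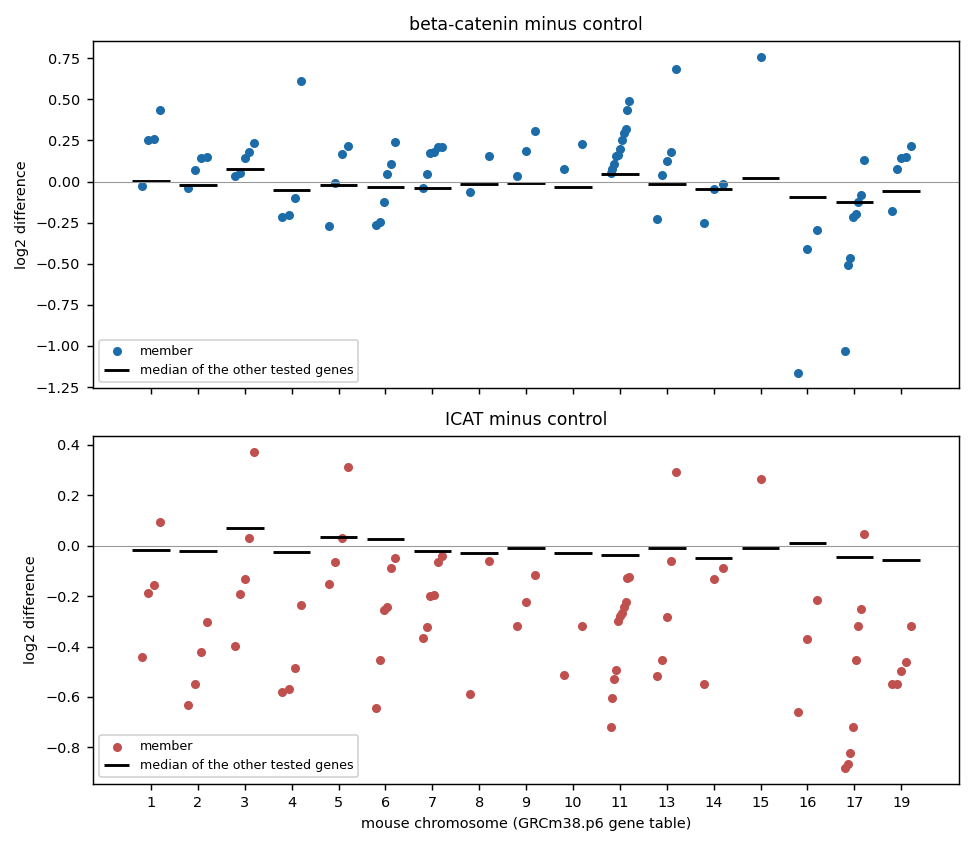
Log2 difference of each member (points) in beta-catenin minus control (top) and ICAT minus control (bottom), by chromosome, with the median of the other tested genes there (bars). In beta-catenin cells all 11 members on chromosome 11 lie above 0 and 7 of 8 on chromosome 17 below it, on the same side as the median of the other genes, whereas ICAT members lie below the other genes' median on most chromosomes.

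Genes that work with the mitochondrial ribosome were read as further lists. The shares of all tested genes called higher and lower were 19.6% and 15.4% in beta-catenin cells and 18.7% and 18.5% in ICAT cells, and the counts below stand beside these. Of 4 ribosomal subunits with other names, 3 fell in ICAT cells and none rose: Gadd45gip1 (-0.76, adjusted p = 0.000246, limma), Chchd1 (-0.54, adjusted p = 0.000294) and Ptcd3 (-0.53). The insertase Oxa1l, to which the ribosome docks, stood on the same list and fell as well (-0.31). In beta-catenin cells Dap3 rose (0.25, adjusted p = 0.00769) and Ptcd3 fell (-0.28, adjusted p = 0.0117). Of 10 mitochondrial translation factors 5 fell in ICAT cells, among them the elongation factors Tufm (-0.51, adjusted p = 0.000134), Tsfm (-0.48) and Gfm1 (-0.50), and the initiation factor Mtif3 rose (0.25, adjusted p = 0.00918). In beta-catenin cells Guf1 rose (0.46) and Gfm2, a factor of ribosome recycling, fell (-0.36). Of 19 mitochondrial aminoacyl-tRNA synthetases and related genes 8 fell in ICAT cells, led by Qrsl1 (-0.999, adjusted p = 3.12e-05) and Yars2 (-0.82, adjusted p = 0.000468), and none rose. In beta-catenin cells 2 fell, Yars2 (-0.60) and Vars2 (-0.19).

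Genes for building the ribosome and for handling mitochondrial RNA were read in the same way. Of 26 tested genes for ribosome assembly and rRNA modification, 12 fell in ICAT cells and 1 rose (median -0.18). Fastkd2, an RNA-binding protein of the mitochondrial RNA granule, fell most (-0.78, adjusted p = 8.06e-05), and the rRNA methyltransferase Tfb1m rose (0.26, adjusted p = 0.0237). In beta-catenin cells 6 of the 26 rose and 2 fell. The 23.1% that rose was near the 19.6% of all tested genes, and the 7.69% that fell was under their 15.4%. The GTPases Gtpbp10 (0.83, adjusted p = 4.5e-05 in limma) and Eral1 (0.43, adjusted p = 0.00161) were among the increases. Of 17 genes for mitochondrial DNA transcription and RNA stability, 9 fell in ICAT cells and 1 rose, led by Fastkd5 (-0.73, adjusted p = 5.72e-05) and Lrpprc (-0.67, adjusted p = 8.09e-05), a stabiliser of mitochondrial messages. In beta-catenin cells 1 of the 17 rose and 3 fell, with Lrpprc lower as well (-0.58, adjusted p = 0.000192).

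Transcription factors and co-activators of nuclear mitochondrial genes differed from one another. In beta-catenin cells 3 of 12 rose and 5 fell. Ppargc1a, the co-activator PGC-1alpha of mitochondrial biogenesis, measured 7.53, 7.59 and 8.00 in beta-catenin cells, 5.42, 5.16 and 5.56 in ICAT cells, and 5.31, 5.35 and 5.37 in control cells. It rose by 2.36 in beta-catenin cells (adjusted p = 9.46e-08, limma), where its arrays were far above all others, from a level near the filter in control cells, and was not called in ICAT cells (0.04, adjusted p = 0.864). Myc rose in beta-catenin cells (0.44, adjusted p = 0.000178) and was not called in ICAT cells (0.12, adjusted p = 0.156). Nrf1 and Esrra fell in both lines, with differences of -0.48 and -0.44 in beta-catenin cells and of -0.30 and -0.30 in ICAT cells. Pprc1, a relative of Ppargc1a, fell most in ICAT cells (-0.80, adjusted p = 2.72e-05), where 4 of the 12 fell and 1, Tfe3, rose (0.65, adjusted p = 2.04e-05).

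Cytosolic ribosomal protein genes and respiratory chain genes were read beside the set. Among 42 tested cytosolic ribosomal protein genes, beta-catenin cells had 4 increases and 2 decreases (median -0.01), and ICAT cells had 1 increase and 4 decreases (-0.02). Of 77 tested nuclear subunit genes of the oxidative phosphorylation complexes, beta-catenin cells had 23 increases and 9 decreases (0.07), and ICAT cells had 11 increases and 16 decreases (-0.07). Between beta-catenin and ICAT cells, 31 of these 77 genes were higher and 7 lower (0.14). These are 40.3% and 9.09%, beside 22.5% and 17.9% of all tested genes. The difference between these gene groups and the mitochondrial ribosomal protein genes was not tested, since genes are not independent replicates.

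Other probe sets of the same genes were read as a check of the calls. Of the 156 probe sets 76 stood for the genes, and 80 others belonged to 42 of the genes, of which 70 passed the filter. For genes called in ICAT cells there were 52 others, of which 24 were called in the same direction, 23 were not called, 5 were not tested and 0 were called in the opposite direction. For genes called in beta-catenin cells there were 30, of which 12 were called in the same direction, 14 not called, 3 not tested and 1, of Mrpl1, called in the opposite direction. Between beta-catenin and ICAT cells 33 of 66 were called in the same direction, 26 were not called and none was opposite. Gene spans of 19 members overlap that of another protein-coding gene in the RefSeq table, and these neighbours did not all move with their member. Tcp1, a chaperonin gene that overlaps Mrpl18, also fell in ICAT cells (-0.47, adjusted p = 0.000149 in limma) and in beta-catenin cells (-0.36, adjusted p = 0.000787). Ska3 fell in ICAT cells with Mrpl57 (-1.03, adjusted p = 0.00019). Klc4 rose there (0.34, adjusted p = 0.00475) where Mrpl2 fell, and Syvn1 rose (0.21, adjusted p = 0.0308) where Mrpl49 fell. Whether probe sets read such neighbours was not tested.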

How the data were processed

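The deposited log2 values, 1 for each probe set on each array, were computed by the authors with RMA (affy), per the submitters' processing notes, with versions not given in the sources used here. RMA equalises the distribution of probe intensities between arrays, which can remove a shift of all genes one way, although medians of the resulting probe-set values still differed slightly, and it compresses differences of dim probe sets. All columns were mapped to samples (0 were left unmapped), and no 2 arrays were identical. The arrays' small number limits the precision.

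Of 45037 probe sets, 34945 had 1 gene symbol in the platform annotation, 932 several and 9160 none. Symbols were updated through a table of RefSeq genes, in which 204 single-gene probe sets had no match. A linear model of group means was fitted to 15235 genes over 9 arrays with limma (version 3.58.1, under R 4.3.3), leaving 6 residual degrees of freedom beside 5.03 of the prior. Its moderated test, two-sided, gave p-values for 3 comparisons, adjusted over all genes in each by Benjamini and Hochberg's method, and calls needed an adjusted p under 0.05. Exact permutation of 3 against 3 arrays goes no lower than 0.1 and was not used. No test was made on a list. Figures were drawn with matplotlib 3.10.9.

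The members, the gene lists and the tests were chosen with earlier results of these data known. Named were up to 8 called members with the largest increase and 8 with the largest decrease against control in each line, up to 5 each way between the lines, the 4 brightest and 4 dimmest members, the 3 Mrps18 genes, members with conflicting calls, and up to 4 called genes per list. Not every gene so selected is described. On simulated data for the 15235 genes, the comparison of beta-catenin with control found 81 percent of simulated 1.5-fold changes and 20 percent of 1.2-fold ones, with 6.48 percent false calls. For ICAT with control 76 and 18 percent were found (3.09 percent false), and for beta-catenin with ICAT 81 and 10 percent (4.21 percent false). The simulation gave every array of a gene the same spread and changed few genes. In the data ICAT arrays varied more and many genes were called, so these rates need not hold for the real comparisons. Alternatives were other filters, the mean of all probe sets per gene, a fit over all probe sets, centred arrays, array weights, a trended robust prior, only the 6 arrays compared, a replicate block, and each array left out. Promoter sequences came from RefSeq (GRCm38.p6), with no genome used here.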

Additional observations from a re-analysis of the deposited data

Results flagged for a closer look

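Among the mitochondrial ribosomal protein genes, 8 were singled out because they were called in opposite directions against control, higher in beta-catenin cells and lower in ICAT cells, with a called difference between the lines. The log2 difference of beta-catenin minus ICAT was 0.846554 for Mrps23, 0.764154 for Mrpl22 and 0.662487 for Mrps24. It was 0.561862 for Mrpl58, 0.547878 for Mrpl54 and 0.530176 for Mrpl4. For Mrpl27 it was 0.496832 and for Mrpl51 0.495514. Both comparisons with control share the control arrays, while the difference given here does not use them other than in the spread estimate. The genes were chosen partly by this same difference, so its size is no separate support for them. No outlier test on single arrays was run, since each group held 3.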

How the results depend on the processing

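The 47 decreases in ICAT cells ranged from 39 to 59 with arrays left out (highest without ICAT replicate 3), and were 44 with only the 6 arrays compared and 59 with centred arrays; the 4 increases ranged from 3 to 4, and the median of -0.29 from -0.3571 to -0.2334. Counts in beta-catenin cells were less stable. The 18 increases ranged from 9 (without control replicate 1 or 3 or beta-catenin replicate 2 or 3) to 25 (without ICAT replicate 3), with 11 without control replicate 2, and were 36 with array weights and 32 with the 6 arrays compared. The 10 decreases ranged from 7 to 15 and were 16 with array weights, 16 with the 6 arrays compared and 17 with centred arrays. The median of 0.09 ranged from 0.07786 to 0.1218 and was 0.03222 with centred arrays. Array weights ran from 0.217 (ICAT replicate 3) to 3.81 (beta-catenin replicate 2). Between beta-catenin and ICAT cells the 58 higher genes ranged from 48 to 64, and the 3 lower genes from 1 (without beta-catenin replicate 1 or 3) to 5 (without ICAT replicate 1), with 1 on the 6 arrays compared. The median there of 0.38 ranged from 0.3213 (without ICAT replicate 2) to 0.4595 (without ICAT replicate 3) and was 0.2937 with the mean of all probe sets per gene. Genes called over all tested ranged from 4285 to 6218, 4587 to 6153 and 5182 to 6981 in the 3 comparisons with arrays left out. The share of all tested genes called under the other settings is not given here. Member counts under those settings therefore show how calls depend on the setting and are not read as results about the members. The sign of Mrpl1 in beta-catenin cells turned with the mean of all probe sets (0.0788, adjusted p = 0.34 in limma), where its probe sets disagree. Over the 32 named members and 3 comparisons, leaving out arrays kept 760 values on their side of the threshold, ended the call of 94 and added a call to 10. Other causes were not tested. No label says that replicate numbers pair samples, so the numbers were not taken as pairs. Same-numbered arrays deviated together with correlations from -0.129 to 0.41. For replicate 3 the same number gave the highest correlation in all 3 comparisons (0.121, 0.175 and 0.41). Replicate 1 did so in both comparisons with control, and replicate 2 in none. Whether arrays of replicate 3 had a shared source was not tested. With the replicate number as a block, 18 members were higher and 11 lower in beta-catenin cells (median 0.0911), 4 higher and 50 lower in ICAT cells (median -0.2925), and 57 higher and 3 lower between the lines (median 0.3833). Read by its brightest probe set, or by the mean of its probe sets, no member was called in the opposite direction under any of these alternatives. The other tested probe set of Mrpl1 was called higher in beta-catenin cells, as given above.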
